A study of Mus musculus with 2 samples.

Results

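The immediate early genes described here are Fos, Fosb, Jun, Junb, Egr1, Ier2, Atf3, Dusp1, Cyr61 and Zfp36, 10 of the 31053 genes in the feature tables of a single-cell RNA study of isolated colonic crypt cells of the mouse. They were taken by symbol, and each symbol had 1 entry. The Mettl14_cKO library came from M14(f/f);Villin-Cre mice, in which a Cre recombinase made in gut epithelium acts on floxed alleles that the labels call M14, read here as Mettl14. The control library came from M14(f/f) mice, which carry the same floxed alleles and no Cre. Both groups were C57BL/6 mice aged 4 weeks, and each library was 1 pool of crypt cells from 3 mice, so no test was possible. The levels were set side by side across epithelial and immune cell types to show which differences follow a cell type, which follow a library and which follow signs of handling.

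Immediate early genes are switched on within minutes of a stimulus, without new protein synthesis, mostly through MAP kinases acting on transcription factors already bound at their promoters. Growth factors, depolarisation and microbial signals induce them in tissue, and so do the warming, cutting and enzyme digestion used to free single cells. Their RNAs are short-lived, so a level in a dissociated cell can reflect the living tissue, the preparation or both.

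The promoters of 8 of the 10 genes were matched by symbol to RefSeq (GRCm38.p6), from 250 bases before the transcription start to 50 after it. Egr1 and Ier2 had no promoter entry. The following 4 are shown because these genes either set the AP-1 response (Fos, Junb) or had the largest folds in goblet-like cells (Atf3, Dusp1). Capitals mark TGACG on either strand, the core of the binding site of cAMP response element factors, among which ATF3 itself counts.
Fos: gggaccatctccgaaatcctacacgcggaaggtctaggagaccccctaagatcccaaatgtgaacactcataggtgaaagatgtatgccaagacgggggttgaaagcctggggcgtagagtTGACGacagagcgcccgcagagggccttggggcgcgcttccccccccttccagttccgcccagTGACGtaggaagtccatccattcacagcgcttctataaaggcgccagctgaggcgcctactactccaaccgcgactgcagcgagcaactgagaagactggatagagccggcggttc
Junb: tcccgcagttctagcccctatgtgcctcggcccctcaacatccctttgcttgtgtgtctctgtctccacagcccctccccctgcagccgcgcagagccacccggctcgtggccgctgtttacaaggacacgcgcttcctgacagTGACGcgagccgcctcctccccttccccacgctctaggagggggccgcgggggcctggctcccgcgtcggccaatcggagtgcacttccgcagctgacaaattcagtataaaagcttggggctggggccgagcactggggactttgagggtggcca
Atf3: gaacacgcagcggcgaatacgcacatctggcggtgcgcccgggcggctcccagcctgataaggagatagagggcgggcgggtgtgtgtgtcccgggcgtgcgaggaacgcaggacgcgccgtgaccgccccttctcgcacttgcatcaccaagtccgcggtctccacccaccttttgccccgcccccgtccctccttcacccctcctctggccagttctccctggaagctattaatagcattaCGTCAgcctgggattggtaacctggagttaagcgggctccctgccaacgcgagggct
Dusp1: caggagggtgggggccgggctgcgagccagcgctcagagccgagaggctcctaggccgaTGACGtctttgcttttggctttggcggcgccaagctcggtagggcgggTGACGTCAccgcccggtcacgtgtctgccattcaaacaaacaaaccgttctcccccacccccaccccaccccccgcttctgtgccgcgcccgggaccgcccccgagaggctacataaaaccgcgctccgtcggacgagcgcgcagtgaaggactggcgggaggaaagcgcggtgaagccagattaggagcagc
The Fos promoter lies at chr12:85473640-85473939 on the plus strand, and its matches begin 129 and 66 bases before the start. The Junb promoter lies at chr8:84978699-84978998 on the minus strand, with a match 106 bases before the start, and that of Atf3 at chr1:191183284-191183583 on the minus strand, with a match 7 bases before it. The Dusp1 promoter lies at chr17:26508423-26508722 on the minus strand. Its matches begin 191, 143 and 140 bases before the start, and the last 2 overlap in the full palindrome TGACGTCA. TGACG occurred in 6 of the 8 promoters (Fos, Fosb, Junb, Atf3, Dusp1 and Cyr61), against 20.8% of 32851 promoters of the same length. TGACGTCA was found in Dusp1 alone among the 8, against 1.79% of all promoters. TGACTCA, an AP-1 site, was in none of the 8, against 5.20% of all. The CArG box, bound by serum response factor, was in Zfp36 alone (1.63% of all), and TATAAA was in Fos, Junb and Cyr61 (13.6% of all). These matches describe letters only and do not show binding. Sites more than 250 bases before the start, and any of Egr1 and Ier2, were not searched.

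The Mettl14_cKO library held 9225 barcodes with 89729527 UMIs (unique molecular identifiers, 1 per captured RNA) and a median of 3872 per barcode, and the control library 10181 barcodes with 111239295 UMIs and a median of 9085. After filters 7078 Mettl14_cKO and 9083 control cells were kept, and 33 barcodes occurred in both libraries. Cells were clustered without the immediate early genes, so that these did not define the classes, which were named from markers and are called goblet-like and so on. Epcam, the epithelial surface protein, had 1883 CPM (the UMIs of a gene scaled by all UMIs of its class) in Mettl14_cKO and 2989 CPM in control epithelial cells. Mettl14 had 5.07 CPM in Mettl14_cKO and 4.77 CPM in control epithelial cells. The exons deleted were not given in the sources used here, so this level checks neither the deletion nor the labels. Xist had 312 and 0.0643 CPM in the Mettl14_cKO and control libraries, and 4 Y-linked genes summed to 0.0700 and 103 CPM, so genotype cannot be told apart from sex or from the library. One library made up at least 90% of the cells in 17 of the 22 epithelial clusters. Goblet-like cells lay mainly in clusters 6, 7 and 8 in the Mettl14_cKO library, against 10, 16, 21, 24 and 27 in the control. Colonocyte-like cells lay in cluster 1 against 18, and cycling-like cells in 0 and 2 against 2, 4 and 9. T or NK-like cells lay in 12 and 20 against 20, and enteroendocrine-like cells in 17 and 26 in both. The 95% intervals given throughout reflect counting error alone, not differences between mice.

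In goblet-like cells, the mucus-secreting cells of the colon, all 10 immediate early genes were lower in the Mettl14_cKO library, from 2677 Mettl14_cKO and 3837 control cells. The median log2 ratio of the 10 genes was -1.21, against -0.09 over all 6890 genes compared there. At least 2-fold lower were 8 of the 10, against 4.22% of those genes, and 0 were at least 2-fold higher, against 4.25% of genes. The medians of the other classes were nearer to 0, though under some other settings those of colonocyte-like and cycling-like cells lay further from 0 than the goblet-like one. In cycling-like cells (1542 and 1891 cells) 10 of 10 were lower, 5 of them at least 2-fold (4.28% of 7079 genes), with a median of -0.96. In colonocyte-like cells, the absorptive cells (317 and 807), 9 of 10 were lower, and 6 of the 9 that reached a mean of 10 CPM were at least 2-fold lower (8.59% of 6006 genes). Their median over all 10 was -1.08. In hormone-secreting enteroendocrine-like cells (390 and 222) 6 of 10 were lower, only Atf3 and Cyr61 at least 2-fold (6.78% of 8071 genes), with a median of -0.47. In T or NK-like cells (395 and 363), which are not epithelial, 8 of 10 were lower, and of the 9 that reached 10 CPM only Jun and Atf3 were at least 2-fold lower (5.51% of 7003 genes), with a median of -0.60. None of the 10 was at least 2-fold higher in cycling-like, colonocyte-like, enteroendocrine-like or T or NK-like cells, where 7.29%, 11.9%, 11.1% and 7.07% of genes were. Cyr61 was below 10 CPM in colonocyte-like and T or NK-like cells. The cycling-like figure depends on how the cells were grouped, with medians from -1.72 to -0.04 over the other settings tried. The enteroendocrine-like and T or NK-like medians turned to 0.12 and 0.07 in cells thinned to a common depth. Free epithelial RNA, described below, also bears on the T or NK-like values.

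**Figure D1:**
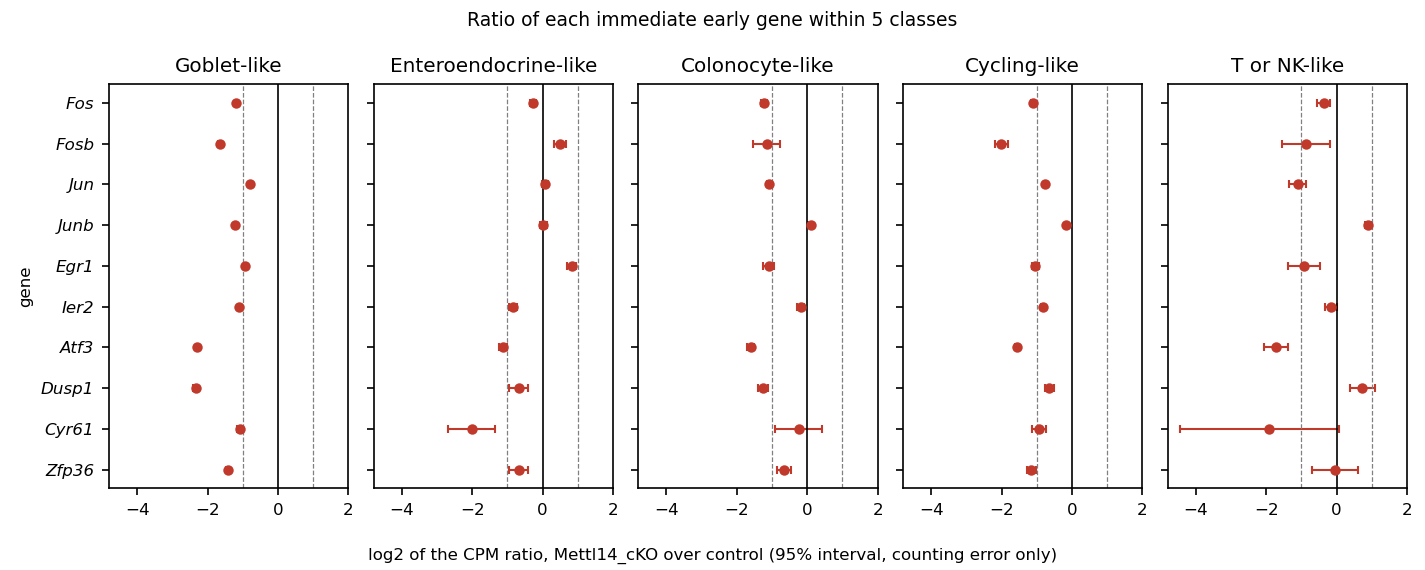
Log2 of the plain CPM ratio, Mettl14_cKO over control (horizontal axis), for each of the 10 genes (vertical axis) in the 5 classes compared, with 95% intervals for counting error and dashed lines at 2-fold. Points left of 0 are lower in the Mettl14_cKO library. All 10 genes lie left of 0 in goblet-like and cycling-like cells, and Junb and Dusp1 lie right of it in T or NK-like cells.

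Fos encodes the inducible partner that joins JUN proteins to form the AP-1 transcription factor. Fos had 571 CPM in Mettl14_cKO and 1314 CPM in control goblet-like cells, a 2.30-fold lower level (2.27 to 2.34). It had 332 CPM in Mettl14_cKO and 776 CPM in control colonocyte-like cells (2.34-fold lower, 2.20 to 2.48). In cycling-like cells Fos had 224 CPM in the Mettl14_cKO library and 486 CPM in the control (2.17-fold lower, 2.10 to 2.25). Enteroendocrine-like cells were closer, with 903 CPM in Mettl14_cKO and 1089.6 CPM in control cells, and so were T or NK-like cells, with 474 and 613 CPM in the same order. In the control library Fos was highest in goblet-like cells and lowest in cycling-like cells, whose interval overlapped that of tuft-like cells. In the Mettl14_cKO library enteroendocrine-like cells stood highest and plasma-like cells lowest, at 122 CPM, overlapping tuft-like cells.

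Fosb, the second inducible FOS protein, was highest in enteroendocrine-like cells in both libraries, with 343 CPM in Mettl14_cKO and 243 CPM in control cells, a ratio of 1.41 (1.26 to 1.58). The next class by level, macrophage-like cells in the Mettl14_cKO library, had 55.8 CPM, and in the control it was goblet-like cells with 169.8 CPM. The step from enteroendocrine-like cells to the next class was therefore larger in the Mettl14_cKO library. In goblet-like cells it had 54.2 CPM in the Mettl14_cKO and 169.8 CPM in the control library (3.13-fold lower, 2.99 to 3.28), and in cycling-like cells 11.5 and 46.3 CPM (4.02-fold lower, 3.52 to 4.59).

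Jun, the AP-1 subunit that also binds DNA as a pair with itself, had 815 CPM in Mettl14_cKO and 1404 CPM in control goblet-like cells (1.72-fold lower, 1.70 to 1.74). Colonocyte-like cells had 633 and 1338 CPM (2.11-fold lower, 2.02 to 2.21), and cycling-like cells 421 and 716 CPM (1.70-fold lower, 1.66 to 1.74). Enteroendocrine-like cells had 1093 CPM in Mettl14_cKO and 1039 CPM in control cells, with a ratio of 1.05 whose interval (0.991 to 1.12) includes 1. T or NK-like cells held the lowest Jun level in both libraries, 210.3 CPM in Mettl14_cKO cells, overlapping macrophage-like cells, and 453 CPM in control cells.

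Junb, an AP-1 subunit that restrains growth in many cells and is abundant in T cells, followed cell type more than library. T or NK-like cells were highest in both libraries, with 3599 CPM in Mettl14_cKO and 1949.7 CPM in control cells, a ratio of 1.85 (1.74 to 1.96). In the Mettl14_cKO library neutrophil-like cells came next with 2029 CPM, then macrophage-like cells with 955 and plasma-like cells with 885 CPM, whose intervals overlapped. Plasma-like cells also overlapped enteroendocrine-like cells, and the other immune classes stood above every epithelial class of that library. Goblet-like cells had 362 CPM in Mettl14_cKO and 849.8 CPM in control cells (2.35-fold lower, 2.30 to 2.39). Colonocyte-like cells had 599 and 559 CPM (ratio 1.07, 1.02 to 1.12), cycling-like cells 299 and 335 CPM, and enteroendocrine-like cells 814 and 806 CPM. Junb overlaps Prdx2 on the other strand, and the sources used here do not say whether reads were counted by strand. Prdx2 had 399 and 421 CPM in Mettl14_cKO and control T or NK-like cells, and 451 and 535 CPM in goblet-like cells.

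Atf3, a stress-induced member of the ATF/CREB family, was at least 2-fold lower in every class compared. Goblet-like cells had 257 CPM in the Mettl14_cKO and 1254 CPM in the control library (4.88-fold lower, 4.78 to 4.98), where 0.537% of genes had a lower ratio. Colonocyte-like cells had 279 CPM in Mettl14_cKO and 853 CPM in control cells (3.05-fold lower, 2.86 to 3.26), and cycling-like cells 108 and 321 CPM (2.96-fold lower, 2.83 to 3.098). Atf3 was also lower in the T or NK-like class, with 105 and 344 CPM (3.28-fold lower, 2.62 to 4.14). If Atf3 were carried over in proportion to Epcam, 28.4 and 256 CPM of these would be free epithelial RNA. The part this plays in the T or NK-like difference was not tested. Enteroendocrine-like cells had 413 and 903 CPM (2.19-fold lower, 2.02 to 2.38). Over the other settings the log2 ratio of Atf3 stayed below 0 in all 5 classes, though it was less than 2-fold lower in some, with values up to -0.58 in cycling-like and -0.82 in enteroendocrine-like cells. The highest class of the Mettl14_cKO library was neutrophil-like with 521 CPM, and the lowest plasma-like with 33.1 CPM.

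Egr1, a zinc finger factor of the growth factor and neuronal responses, differed in direction between classes. Enteroendocrine-like cells had 634 CPM in Mettl14_cKO and 358 CPM in control cells, a ratio of 1.77 (1.62 to 1.94). In the other epithelial classes it was lower. Goblet-like cells had 197 CPM in Mettl14_cKO and 375 CPM in control cells (1.91-fold lower, 1.86 to 1.96), colonocyte-like cells 104 and 221 CPM (2.13-fold lower, 1.91 to 2.38) and cycling-like cells 55.2 and 114 CPM (2.07-fold lower, 1.93 to 2.21). In the control library goblet-like and enteroendocrine-like cells did not differ in Egr1 beyond counting error, while in the Mettl14_cKO library the enteroendocrine-like level stood above every other class.

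Ier2, a nuclear regulator of transcription induced with the FOS genes, had 591 CPM in Mettl14_cKO and 1283 CPM in control goblet-like cells (2.17-fold lower, 2.14 to 2.20). Enteroendocrine-like cells had 477 and 859 CPM (1.80-fold lower, 1.67 to 1.95), cycling-like cells 288 and 509 CPM (1.77-fold lower, 1.72 to 1.82) and colonocyte-like cells 246 and 280.2 CPM. Outside the epithelium, T or NK-like cells had 579 and 644 CPM, a ratio of 0.898 whose interval (0.797 to 1.012) includes 1. In the Mettl14_cKO library Ier2 was highest in goblet-like, then T or NK-like, neutrophil-like and enteroendocrine-like cells, each overlapping its neighbour in the order. Goblet-like and T or NK-like levels still lay above the enteroendocrine-like level beyond counting error.

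Dusp1 and Zfp36 act as brakes on the response. Dusp1 encodes a phosphatase that turns off MAP kinases, and Zfp36 encodes tristetraprolin, which binds AU-rich RNAs and speeds their decay. Dusp1 had 49.5 CPM in Mettl14_cKO and 250.04 CPM in control goblet-like cells, a 5.06-fold lower level (4.83 to 5.30), with 0.522% of genes lower. Colonocyte-like cells had 133 CPM in Mettl14_cKO and 317 CPM in control cells (2.39-fold lower, 2.17 to 2.63). In T or NK-like cells the direction was the other, with 203 CPM in Mettl14_cKO and 122 CPM in control cells, a ratio of 1.66 (1.30 to 2.13). Dusp1 overlaps Ergic1 on the other strand, which had 55.8 CPM in Mettl14_cKO and 94.3 CPM in control goblet-like cells. Neutrophil-like cells, seen in the Mettl14_cKO library only, held the highest levels there of both brakes, 769 CPM of Dusp1 and 278 CPM of Zfp36. Macrophage-like cells followed with 229 and 144 CPM. Zfp36 had 69.1 CPM in Mettl14_cKO and 186 CPM in control goblet-like cells (2.69-fold lower, 2.58 to 2.80), and 30.6 and 68.2 CPM in cycling-like cells (2.23-fold lower, 2.04 to 2.44). In T or NK-like cells it had 45.6 and 46.8 CPM, with an interval of the ratio (0.621 to 1.53) that includes 1.

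Cyr61, a secreted matrix protein and target of YAP, had 43.1 CPM in Mettl14_cKO and 91.1 CPM in control goblet-like cells (2.11-fold lower, 2.004 to 2.23). Goblet-like cells were highest in both libraries, overlapping tuft-like cells in the control. Enteroendocrine-like cells had 25 UMIs (11.9 CPM) in the Mettl14_cKO and 99 UMIs (47.4 CPM) in the control library (between 2.56-fold and 6.48-fold lower). Only 3 and 9 UMIs were found in T or NK-like cells, and the interval of their ratio (0.0457 to 1.05) includes 1.

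**Figure D2:**
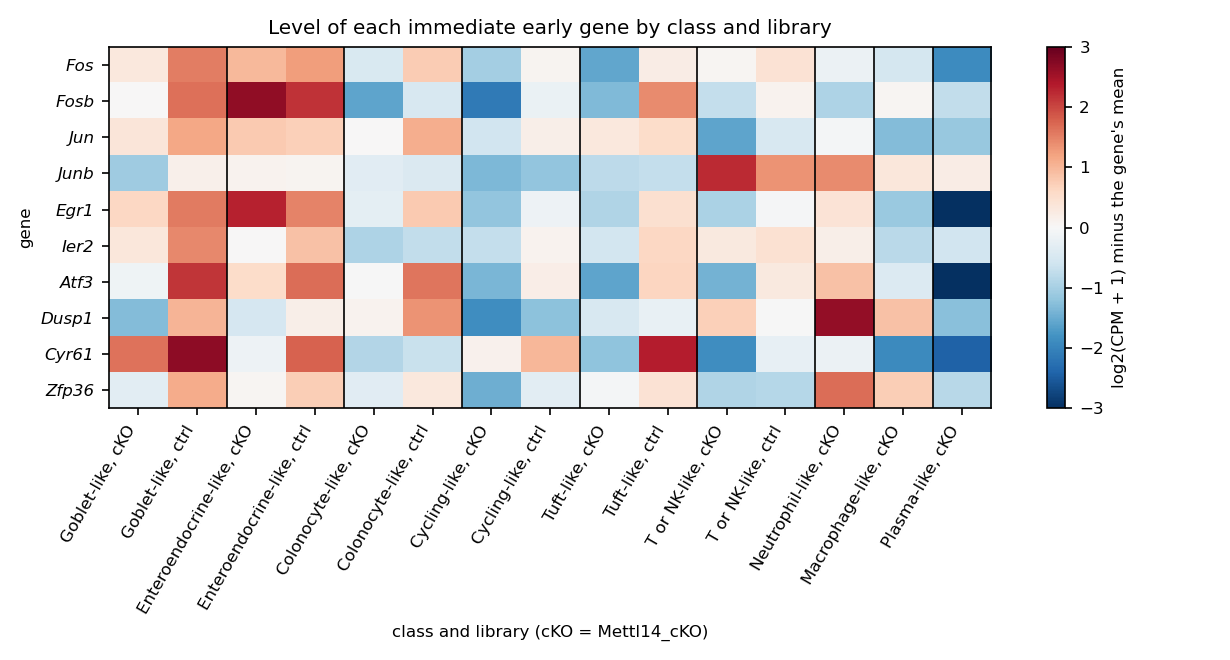
Level of each of the 10 genes (rows) in each cell class (columns, Mettl14_cKO left of control within a class) as log2(CPM + 1) centred on the mean of each gene, with colours clipped at 3 on either side. The highest centred values of the Mettl14_cKO library are Fosb and Egr1 in enteroendocrine-like cells, Junb in T or NK-like cells and Dusp1 in neutrophil-like cells. The strongest low values of that library, which lie further from the gene means, are Atf3 and Egr1 in plasma-like cells. The control goblet-like column is high for most genes. Neutrophil-like, macrophage-like and plasma-like cells of the control were too few to show.

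The class with the highest level differed between the libraries. In the Mettl14_cKO library enteroendocrine-like cells were highest for 4 of the 10 genes (Fos, Fosb, Jun and Egr1), neutrophil-like cells for 3 (Atf3, Dusp1 and Zfp36), goblet-like cells for 2 (Ier2 and Cyr61) and T or NK-like cells for 1 (Junb). In the control library goblet-like cells were highest for 7, with enteroendocrine-like cells highest for Fosb, colonocyte-like cells for Dusp1 and T or NK-like cells for Junb. Goblet-like and tuft-like intervals overlapped for Cyr61, and goblet-like and enteroendocrine-like intervals for Egr1. Across 16 pairs of class and library with at least 50 cells, which share depth and free RNA within each library, Fos (r = 0.903), Atf3 (0.896) and Egr1 (0.842) followed the mean of the other 9 genes most closely. Junb, at 0.0204, followed it least. Among 7615 genes that are not members, the closest to the mean profile of the 10 were Rab2a (r = 0.894), a GTPase of the early secretory route, Tax1bp1 (0.879), an autophagy receptor, and Galnt6 (0.877), an enzyme of mucin-type glycosylation. Trib1 (0.857), an immediate early pseudokinase, Gga1 (0.846), Gnb2 (0.836), Mapre2 (0.830), Arl5b (0.816), Rab6a (0.814) and Acta1 (0.813) came next.

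Since most epithelial clusters belonged to 1 library, the genes were also compared within the 7 clusters that held at least 50 cells of both. The differences there were generally smaller for goblet-like cells. In cluster 10, with 56 Mettl14_cKO and 1192 control cells, 10 of 10 genes were lower, with a median log2 ratio of -0.67. Fos had 670 CPM in Mettl14_cKO and 1005 CPM in control cells of that cluster, and Dusp1 had 100.5 and 184 CPM. In cluster 7, with 356 and 93 cells, 7 of 10 were lower and the median was -0.08, close to the -0.06 of all genes. Fos there had 345 CPM in Mettl14_cKO and 608 CPM in control cells, while Dusp1 had 55.7 and 56.8 CPM. In the cycling-like clusters 2 and 9 the medians were -0.82 (10 of 10 lower) and -0.28 (8 of 10). The 5.06-fold difference of Dusp1 over all goblet-like cells was thus larger than that within either shared goblet-like cluster.

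Enteroendocrine-like cells divided by cluster. Cluster 17, led by Chgb and Tph1, the enzyme of serotonin synthesis, had higher Egr1 and Fosb in the Mettl14_cKO library. Egr1 had 898 CPM in Mettl14_cKO and 389 CPM in control cells (ratio 2.31, 2.08 to 2.57), and Fosb had 482 and 269 CPM (ratio 1.79, 1.57 to 2.04). Fos in that cluster, at 1141 and 1095 CPM, had a ratio of 1.04 whose interval (0.970 to 1.12) includes 1. Cluster 26, led by the peptide hormone genes Pyy and Gcg, had 10 of 10 genes lower, with a median of -1.23. Egr1 there had 135 CPM in Mettl14_cKO and 305 CPM in control cells, and Fos had 454 and 1080.2 CPM. Cyr61 had 0 UMIs in Mettl14_cKO and 23 UMIs in control cells of cluster 26. With 3 counts as a floor for the Mettl14_cKO library it was 7.35-fold lower, and the interval of the ratio ran from 0 to 0.182.

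T or NK-like cells divided in the same way. Cluster 12, led by the gamma-delta receptor gene Trdc and the cytokine gene Il17a, held 218 Mettl14_cKO and 4 control cells, and its Mettl14_cKO cells had 6498 CPM of Junb and 307 CPM of Dusp1. In cluster 20, led by Ccl5 and Gzma, with 177 Mettl14_cKO and 359 control cells, Junb was lower, at 1503 CPM in Mettl14_cKO and 1912 CPM in control cells (ratio 0.786, 0.723 to 0.854). Dusp1 had 127 and 120.1 CPM there, with an interval of the ratio (0.772 to 1.44) that includes 1. Fos had 267 and 612 CPM, and 9 of 10 genes were lower, with a median of -0.96. The higher Junb and Dusp1 of T or NK-like cells as a whole were therefore not seen for Junb, and not beyond counting error for Dusp1, within the cluster that both libraries share. Free epithelial RNA, described below, bears on the lower levels in cluster 20, and its part was not tested.

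**Figure D3:**
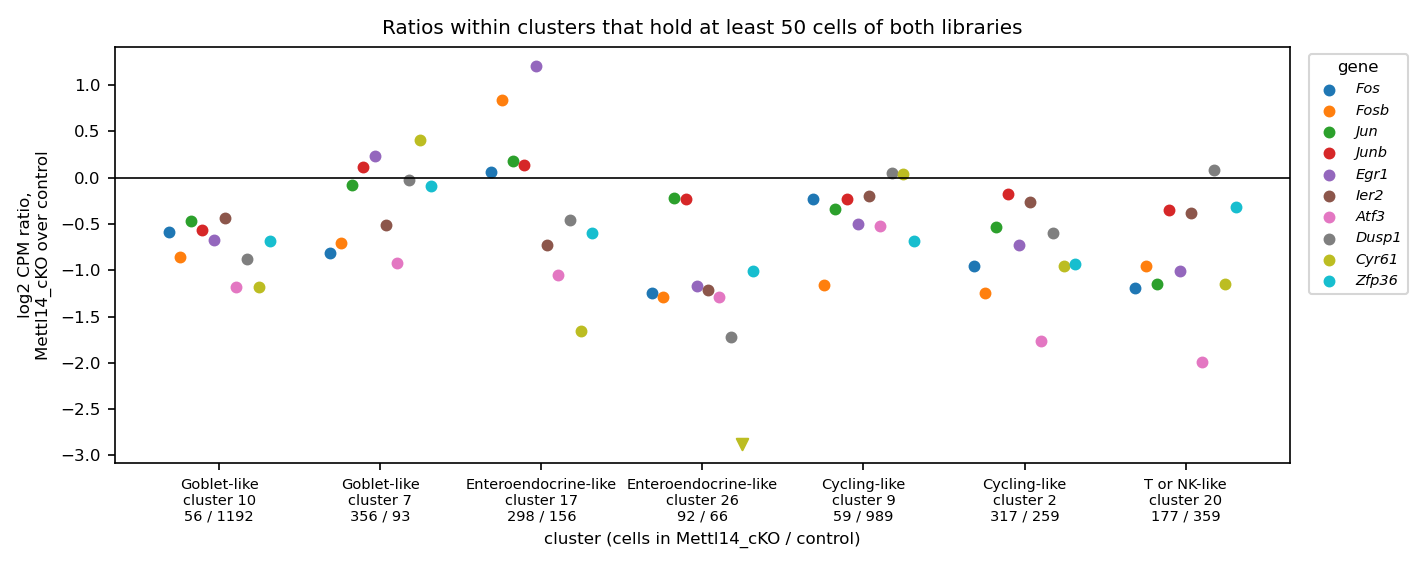
Log2 of the plain CPM ratio, Mettl14_cKO over control (vertical axis), for the 10 genes (points) within each of the 7 clusters with at least 50 cells of both libraries (horizontal axis). Points below 0 are lower in Mettl14_cKO cells, and the triangle marks Cyr61 in cluster 26, drawn at its bound from 3 counts. Clusters 17 and 7 straddle 0, and clusters 2, 10 and 26 lie below it.

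Counted per cell, at least 5 of the genes were found in a larger share of control goblet-like cells. Such a share rises with the level of each gene, so it is not separate from the differences in level above. With each cell thinned to 1000 UMIs, at least 5 of the 10 genes had a UMI in 9.43% of 2629 Mettl14_cKO (8.34 to 10.6) and 40.4% of 3822 control goblet-like cells (38.9 to 42.0). Among enteroendocrine-like cells the shares were 23.0% and 21.4%, with overlapping intervals. Colonocyte-like cells gave 6.35% and 13.8%, and cycling-like cells 3.59% and 7.91%. The T or NK-like shares were 3.35% and 4.42%, again with overlapping intervals. Tuft-like cells gave 0 of 36 Mettl14_cKO cells and 16.7% of 42 control cells. A Fos UMI was found in 30.5% of thinned Mettl14_cKO and 59.8% of thinned control goblet-like cells (69.5% and 93.2% unthinned, with 12994 and 12262 UMIs in the median cell). The thinned Fos shares in T or NK-like cells were 31.4% and 32.7% (45.6% and 48.8% unthinned, at 1940 and 1640 UMIs). Egr1 in enteroendocrine-like cells had thinned shares of 39.3% and 26.05% (61.5% and 61.7% unthinned). Thinning left out 48 Mettl14_cKO and 15 control goblet-like cells. It also left out 21 and 7 of the enteroendocrine-like class, and 7 and 24 of the T or NK-like class. Before thinning, 1102 of the Mettl14_cKO goblet-like cells lay in the shallow cluster 8, with a median of 3166 UMIs. A shallow control cluster also led by Neat1 and Qsox1, cluster 5, stayed unnamed and so outside the goblet-like class. It held 412 control cells, with a median of 1890 UMIs. The part this plays in the goblet-like shares was not tested.

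Detection of the genes went together in most classes. In thinned goblet-like cells each of the other 9 genes was found more often in cells with a Fos UMI, in both libraries. For Atf3 the shares were 30.01% with and 12.2% without a Fos UMI in Mettl14_cKO cells, and 69.4% and 36.8% in control cells. The same held for 9 of 9 genes in cycling-like and enteroendocrine-like cells of both libraries, and for 8 of 9 in Mettl14_cKO and 7 of 9 in control T or NK-like cells. In the Mettl14_cKO library it held for 8 of 9 genes in neutrophil-like and 6 of 9 in macrophage-like cells. In plasma-like cells it held for Cyr61 and for 5 of the other genes, but only 13 of these cells had a Fos UMI. Cyr61 was found in 7.69% of those 13 and in 0% of the 146 without a Fos UMI. In colonocyte-like cells it held for 8 of 9 in both libraries.

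**Figure D4:**
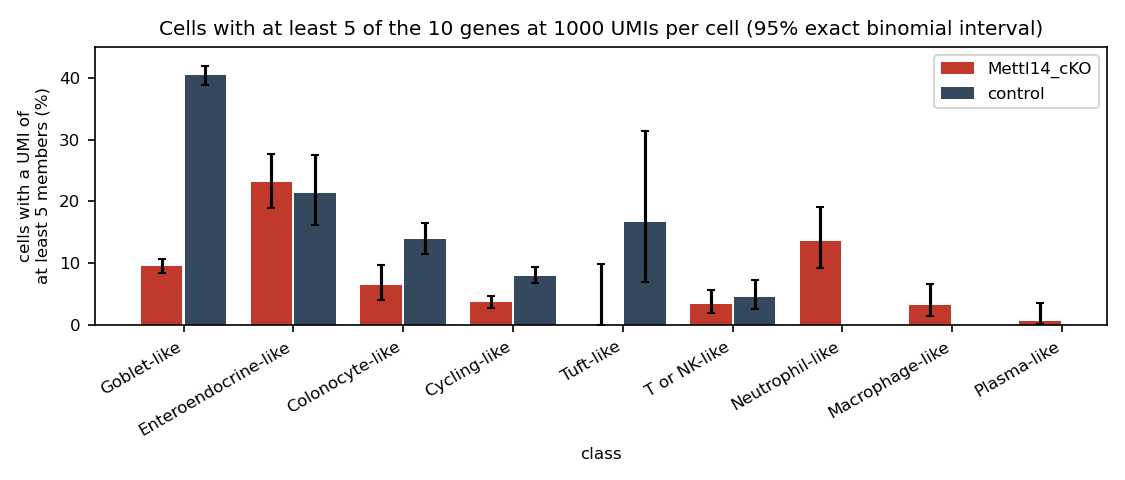
Percent of cells, each thinned to 1000 UMIs, in which at least 5 of the 10 genes had a UMI, by class, with Mettl14_cKO bars left of control bars and exact binomial intervals. The goblet-like bars are 9.43% and 40.4%, and the tuft-like Mettl14_cKO bar is 0. Neutrophil-like, macrophage-like and plasma-like cells have no control bar because under 20 cells were left there.

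Signs of handling were set beside these levels. The mitochondrial share of UMIs, which is raised in damaged cells, had a median of 6.30% per barcode in the Mettl14_cKO and 3.74% in the control library. Within goblet-like cells the summed level of the 10 genes, here scaled to the UMIs of nuclear genes alone, differed less between bins of that share than between the libraries. It was 3068, 3137, 3136 and 3588 CPM in Mettl14_cKO cells with 0 to 2.5%, 2.5 to 5%, 5 to 10% and 10 to 25% mitochondrial UMIs, against 7337, 7471, 7306 and 8065 CPM in control cells. The goblet-like difference was thus present in every bin. In cycling-like cells the sum did climb with the share, from 1430 to 3118 CPM over the Mettl14_cKO bins and from 2217 to 4374 CPM over the control bins. Jun climbed in both libraries and Fos did not. Jun had 344 CPM in the lowest and 1270 CPM in the highest bin of Mettl14_cKO cycling-like cells, and 511 and 1639 CPM in those of the control. Fos had 242 and 247 CPM in Mettl14_cKO and 474 and 467 CPM in control cells. In colonocyte-like cells the sum was 2523, 2255, 2866 and 3025 CPM over the Mettl14_cKO bins and 5134, 5245, 4276 and 3265 CPM over the control bins, so the libraries were nearest in the highest bin. The enteroendocrine-like sum was 5237, 5794, 3087 and 3529 CPM over the Mettl14_cKO bins, and 5836, 5488 and 7163 CPM over the first 3 control bins, so the libraries were nearer below 5% than in the bin of 5 to 10%. Median depth was lowest in the highest bin of cycling-like cells, at 3338 UMIs in Mettl14_cKO and 1859 UMIs in control cells, and its part in these levels was not tested.

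**Figure D5:**
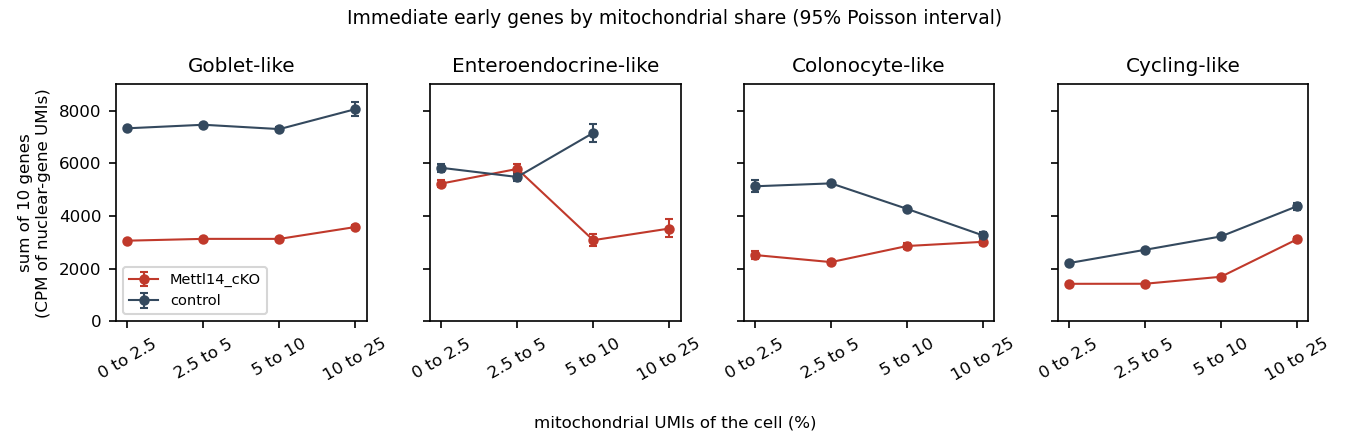
Summed level of the 10 genes (CPM of the UMIs of nuclear genes) by the mitochondrial share of UMIs per cell, in 4 bins, for 4 epithelial classes, with Mettl14_cKO and control lines and 95% Poisson intervals. Bins with under 20 cells are not drawn. The goblet-like lines stay apart, between 3068 and 3588 CPM and between 7306 and 8065 CPM, and the cycling-like lines climb in both libraries.

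Barcodes removed by the filter were also rich in Jun. Barcodes with at least 25% mitochondrial UMIs numbered 1601 in the Mettl14_cKO and 595 in the control library. Summed over the 10 genes they had 4958 CPM in the Mettl14_cKO library, against 2606 CPM in the barcodes kept there. In the control they had 4578 CPM, against 5633 CPM in those kept. Removed barcodes of the 2 libraries were thus nearer to each other than the kept ones. Jun had 2073 CPM in the high mitochondrial and 695 CPM in the kept Mettl14_cKO barcodes, and 1411 and 1192 CPM in the same sets of the control. Jun was not alone: in the Mettl14_cKO library the other genes were also higher, such as Cyr61 (78.3 against 29.0 CPM), Fos within counting error. In the control the others were lower, such as Fos (594 against 1029 CPM), apart from Fosb, Cyr61 and Zfp36, which were within counting error. A shallow cluster also had more Jun, but less Fos. In goblet-like cells of the Mettl14_cKO library, cluster 8, with a median of 3166 UMIs per cell, had 1224 CPM of Jun and 313 CPM of Fos, against 821 and 693 CPM in cluster 6, with a median of 20656 UMIs.

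Heat shock genes, a list of chaperone genes many of which answer warming and protein damage, were counted in the same way. Of the 13 of 14 that reached 10 CPM in goblet-like cells, 0 were at least 2-fold lower (4.22% of all genes) and 1 was higher (4.25% of all genes). Both counts are near the shares of all genes. Of the 13, 8 had a log2 ratio below 0. The median was -0.31 over the 13 and -0.22 over all 14, against -0.09 over all genes. The 1 higher gene was Hspa5, with 1409 CPM in Mettl14_cKO and 665 CPM in control goblet-like cells. In enteroendocrine-like cells all 14 reached 10 CPM, and 1 was lower (6.78% of all genes) and 5 were higher (11.1% of all genes). Hspa5 was among these 5, with 1141 CPM in Mettl14_cKO and 483 CPM in control cells. There the chaperone genes Hspa1a and Hspa1b had 282 and 183 CPM in Mettl14_cKO cells, against 33.0 and 19.2 CPM in control cells. Hspa1a and Hspa1b are near-identical copies, so reads may be split between them. In goblet-like cells Hspa1a had 46.0 CPM in Mettl14_cKO and 30.5 CPM in control cells. The colonocyte-like values were 115 and 149.9 CPM. Means of log2 ratios here and in the lists that follow are taken over the 5 classes whether or not a gene reached 10 CPM, so those of low genes are imprecise. By this mean Hspa1b (1.14), Hspa1a (1.04) and Hspb1 (0.92) were highest, although Hspb1 reached 10 CPM in enteroendocrine-like cells only, and Hspe1 (-0.63), Bag3 (-0.40) and Hspd1 (-0.35) lowest. These lists, like the 10 genes, were drawn up with earlier results of these data known.

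A wider list of 36 other immediate early genes followed the 10 in goblet-like cells. Of 31 that reached 10 CPM there, 11 were at least 2-fold lower (4.22% of all genes) and 0 higher (4.25% of all genes), with a median over all 36 of -0.74. Of 34 in enteroendocrine-like cells 5 were lower (6.78% of all genes) and 1 higher (11.1%). Of 29 in cycling-like cells 5 were lower (4.28% of all genes) and 1 higher (7.29%). Counts in the other classes lay nearer to the shares of all genes. Colonocyte-like cells had 3 lower and 0 higher of 28, beside 8.59% and 11.9% of all genes, and T or NK-like cells 3 lower and 3 higher of 32, beside 5.51% and 7.07%. Whether the list differs between classes was not tested. By mean log2 ratio the lowest were the AP-1 gene Fosl1 (-1.29), which reached 10 CPM in enteroendocrine-like cells only, Trib1 (-1.07) and the zinc finger factor Klf6 (-0.92). The highest were the survival gene Mcl1 (0.46), Btg1 (0.45) and the cytokine brake Socs3 (0.44), which reached 10 CPM in enteroendocrine-like and T or NK-like cells only. Klf6 had 223 CPM in Mettl14_cKO and 482 CPM in control goblet-like cells.

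Genes that restrain or carry MAP kinase signals were counted in goblet-like cells in the same way. Of 15 feedback genes, 10 reached 10 CPM there, with 4 at least 2-fold lower (4.22% of all genes) and 0 higher (4.25%), and a median over all 15 of -0.54. Across classes Etv5 (-0.87), Dusp5 (-0.74) and Lrig1 (-0.42) had the lowest mean log2 ratios, and the phosphatase genes Dusp4 (1.998), Dusp2 (0.36) and Dusp7 (0.35) the highest. Of these, Dusp7 reached 10 CPM in no class, Dusp2 in T or NK-like cells only and Dusp4 in enteroendocrine-like and T or NK-like cells only. Dusp4 had 28.1 CPM in Mettl14_cKO and 2.46 CPM in control T or NK-like cells. Of 20 upstream regulators, the kinases and factors that switch the genes on, 15 reached 10 CPM in goblet-like cells. Of these 1 was lower and 0 higher, near the 4.22% and 4.25% of all genes, with a median over all 20 of -0.03. The lower one was Crem, with 8.61 CPM in Mettl14_cKO and 19.0 CPM in control goblet-like cells. Across classes Mapk3 (-0.33), Elk1 (-0.21) and Srf (-0.21) were lowest, and Elk3 (1.71), Tead1 (0.83) and Crem (0.40) highest. Crem was thus higher in the other classes, though it did not reach 10 CPM in colonocyte-like and cycling-like cells. Its ratio was largest in T or NK-like cells (762 CPM in Mettl14_cKO and 296 CPM in control cells). There Crem was among the 10 leading genes of cluster 12, with 218 Mettl14_cKO and 4 control cells, and the part of this cluster in the ratio was not tested. Elk1 reached 10 CPM in no class, and Elk3 in enteroendocrine-like and T or NK-like cells only. Of 10 other AP-1 genes, 6 reached 10 CPM in goblet-like cells, with 1 lower (4.22% of all genes) and 0 higher (4.25%), and a median over all 10 of -0.59. Apart from Fosl1, Maff (-0.42) and Atf4 (-0.39) had the lowest means, and Jdp2 (1.37), Mafg (0.38) and Batf (0.37) the highest, of which Jdp2 and Batf reached 10 CPM in T or NK-like cells only.

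Epithelial RNA in the immune classes, called free RNA here, bears on their levels. Whether it came from burst cells was not tested. Epcam, which immune cells should lack, stood at 14.1% of its epithelial level in Mettl14_cKO and 27.6% in control T or NK-like cells. It stood at 18.2% in neutrophil-like, 11.9% in plasma-like and 7.11% in macrophage-like cells of the Mettl14_cKO library. If the 10 genes were carried over in proportion to Epcam, 9 of 10 would still lie above that level in T or NK-like cells of both libraries. At least 2 times that level were 9 of 10 in Mettl14_cKO and only 4 of 10 in control T or NK-like cells, where Zfp36 was 1.22 times it and Jun 1.42 times. Other epithelial genes gave shares from 14.1% (Krt18) to 20.1% (Cdh1) in Mettl14_cKO and from 17.4% (Krt8) to 31.2% (Krt18) in control T or NK-like cells. Junb was 70.2 times that level in Mettl14_cKO and 10.6 times in control T or NK-like cells, and Dusp1 was 86.4 times it in neutrophil-like cells. Cyr61 lay below it in T or NK-like cells, at 0.717 times in Mettl14_cKO and 0.662 times in control cells. Atf3 in control T or NK-like cells was 1.34 times that level, against 3.69 times in Mettl14_cKO cells. The share of the lower Atf3 of Mettl14_cKO T or NK-like cells that comes from less epithelial RNA was not tested.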

How the data were processed

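The authors deposited raw UMI counts for each gene and barcode. The Cell Ranger release was 3.1.0 per the file headers, whereas the submitters' processing notes name 3.0.0, along with Seurat 3. Genome build and counting strand: not given in the sources used here. Cells needed 500 genes and less than 25% mitochondrial UMIs. This filter dropped 2100 Mettl14_cKO (22.8%) and 1027 control barcodes (10.1%). Scrublet in scanpy 1.11.5 was run per library, and 47 Mettl14_cKO and 71 control cells with a score of at least 0.25, a limit taken from an earlier account of these data, were removed as doublets. The 10 genes, other immediate early, heat shock and MAP kinase feedback genes, mitochondrial, ribosomal and gasdermin genes, Mettl14, Xist, Tsix and Y-linked genes were left out of the 2000 variable genes. Both libraries were clustered together without integration (30 principal components, 15 neighbours, Leiden resolution 1), into 28 clusters. A cluster was named where at least 3 markers of a class were among its 50 leading genes and no other class had more among the top 10. Unnamed clusters with Epcam of at least 50% of the median over named epithelial clusters are called unnamed epithelial.

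Counts were summed per class and scaled to CPM with exact Poisson intervals, ratios have exact conditional binomial intervals and shares have exact (Clopper-Pearson) binomial intervals. Log2 ratios are Mettl14_cKO over control, each plus 1 CPM, so they understate low genes. Classes with at least 100 cells in both libraries were compared. A gene entered a class with a mean of at least 10 CPM over both libraries, and was counted as higher or lower from 2-fold. With 1 library per genotype there was no test. All 10 genes were named, with the 10 genes of most alike profile (Pearson correlation of log2(CPM + 1) with the mean of the 10) and the 3 highest and 3 lowest genes of each list by mean log2 ratio. The genes and lists were chosen with earlier results of these data known. Ratios were tested on simulated data. Software was matplotlib 3.10.9, igraph 0.11.9, scikit-learn 1.9.0, anndata 0.12.19, pandas 2.3.3, scipy 1.17.1, numpy 2.4.6, Python 3.11.15, R 4.3.3 and edgeR 4.0.16, used for TMM scaling only.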

Additional observations from a re-analysis of the deposited data

Results flagged for a closer look

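For 3 of the genes the difference between Mettl14_cKO and control cells had opposite directions in different cell classes, by more than 0.5 on the log2 scale each way. With 1 library per genotype these differences between classes were not tested. The log2 ratio of Junb was 0.88 in T or NK-like cells and -1.23 in goblet-like cells. That of Egr1 was 0.82 in enteroendocrine-like cells and -1.08 in colonocyte-like cells. The higher Egr1 was in cluster 17, with 898 CPM in Mettl14_cKO and 389 CPM in control cells, while cluster 26, the other enteroendocrine-like cluster, had 135 and 305 CPM. The log2 ratio of Dusp1 was 0.73 in T or NK-like cells and -2.31 in goblet-like cells. The T or NK-like values rest on cluster 12, with 218 Mettl14_cKO and 4 control cells: within cluster 20, which both libraries share, Junb had 1503 CPM in Mettl14_cKO and 1912 CPM in control cells.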

How the results depend on the processing

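No paired analysis was possible because the labels give no replicate numbers and each genotype had 1 library, which also left no replicate to leave out. Over 16 other settings the median log2 ratio of the 10 genes stayed between -1.41 and -1.13 in goblet-like cells, and over 15 between -1.58 and -0.68 in colonocyte-like cells. It ran from -1.72 to -0.04 in cycling-like, -0.61 to 0.12 in enteroendocrine-like and -1.04 to 0.07 in T or NK-like cells, so no direction holds for the last 2 classes.

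The cycling-like median was -1.69 with the lenient cell filter, -1.72 with the strict filter, -0.58 at resolution 0.5, -0.36 with handling genes kept for clustering and -0.038 in clusters with 50 cells of both libraries. The last merges clusters 2 and 9, in which the libraries have different shares. So does the goblet-like value of that setting (-1.39), which merges clusters 7 and 10, whereas the medians within those clusters were -0.08 and -0.67. The goblet-like difference is therefore smaller within clusters that both libraries share. No such value could be had for colonocyte-like cells. The colonocyte-like median was -1.43 with the strict filter, -1.58 with no doublets removed, -1.46 with libraries clustered separately and -1.44 in cells under 5% mitochondrial UMIs.

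Genes at least 2-fold lower in cycling-like cells, 5 in the report, numbered 3 with a pseudocount of 10 CPM, 8 with the lenient filter, with no doublets removed and at resolution 2, 9 with the strict filter, 1 with handling genes kept and 0 at resolution 0.5 and in clusters of both libraries. In T or NK-like cells, 2 in the report, they numbered 6 with the strict filter, 1 at resolution 0.5 and with equal weight per cell, and 4 with no doublets removed, with separate clustering and under 5% mitochondrial UMIs. With equal weight and in thinned cells they numbered 1 in enteroendocrine-like and 2 in colonocyte-like cells. Genes at least 2-fold higher, 0 in the report, numbered 1 in enteroendocrine-like cells with equal weight, in thinned cells and under 5% mitochondrial UMIs, and 2 (equal weight) and 1 (thinned) in T or NK-like cells.

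Of 24 log2 ratios of single genes that were at least 2-fold in the report, the sign turned under some setting for 2: Cyr61 in T or NK-like cells when thinned (1.84, from 3 and 9 UMIs before thinning) and Egr1 in cycling-like cells of clusters with both libraries (0.22). Of the 26 smaller ratios it turned for 16, among them Junb (lowest -0.35) and Dusp1 (lowest -0.21) in T or NK-like cells, Junb in colonocyte-like cells (lowest -0.50), and Jun (highest 0.33) and Dusp1 (highest 0.24) in cycling-like cells. The causes were not tested. TMM scaling moved the median of all genes in enteroendocrine-like cells to -0.02, against 0.12, and in colonocyte-like cells to -0.15, against -0.04. Clusters of both libraries, scaling without mitochondrial UMIs and the 5% limit were added after the data were seen. Low counts limit Cyr61, and all immune values of the control other than T or NK-like cells.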
